A study of Mus musculus with 10 samples.

Results

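Splicing factor genes of mouse embryonic stem cells were grouped into 6 protein families: the SR proteins (symbols beginning with Srsf and a digit), the hnRNP proteins (Hnrnp), the core and particle-specific snRNP proteins (Snrp), the SF3 subunits (Sf3a and Sf3b), the PRPF factors (Prpf) and the U2AF subunits (U2af). Each listed transcript was given its GENCODE M21 symbol, and the coding transcripts whose symbol matched were kept. This gave 68 members among 14534 listed coding transcripts, namely 11 SR, 20 hnRNP, 12 snRNP, 9 SF3, 13 PRPF and 3 U2AF genes. The rule used names and no measured value. The material was CGR8, an established line of mouse embryonic stem cells that was grown without feeder cells. Ribosome footprints, which are the mRNA fragments that ribosomes shield from RNase, were sequenced from control cells given no inhibitor. Per the study's methods all samples held the same amount of DMSO, and untreated here means without an inhibitor. Footprints were also sequenced from cells given 1 µM DMDA-PatA for 10 min, 2 µg/ml harringtonine for 10 min or 0.2 mg/ml puromycin for 20 min. Fragmented RNA of untreated cells, the control transcriptome, was sequenced as well. There were 2 libraries in each of these 5 groups. All cells came from 1 line, and the study calls the replicates biological without saying more of their origin. The p-values measure the spread between these libraries.

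Introns are removed from precursor mRNA by the spliceosome, which assembles anew on each intron from small nuclear RNAs and their proteins. SR proteins bind exonic enhancers through RNA recognition motifs and recruit other factors through a domain of alternating arginine and serine, the RS domain. The hnRNP proteins coat nascent transcripts, and many of them oppose SR proteins at regulated splice sites. Snrp genes encode the Sm proteins, which form a ring around the small nuclear RNAs, and proteins particular to 1 particle such as Snrpa and Snrpc of U1 or Snrpa1 and Snrpb2 of U2. U2AF reads the end of the intron, the SF3A and SF3B complexes of U2 hold the branch site, and the PRPF factors act mostly in the tri-snRNP and in the rearrangements that lead to catalysis. Of the drugs, DMDA-PatA, a derivative of pateamine A, targets the initiation helicase eIF4A. Harringtonine stops ribosomes in their early rounds of elongation and lets those already under way run off. Puromycin mimics an aminoacyl-tRNA and releases the growing chain. The comparisons asked how far each drug removed footprints from the coding sequences and the 5' UTRs of these genes.

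The control footprint libraries held 9104220 and 10614247 reads on coding sequences, the DMDA-PatA libraries 618334 and 748665, the harringtonine libraries 1944784 and 1672087, the puromycin libraries 872713 and 1547460, and the transcriptome libraries 16649611 and 38046741. Footprint values are given as normalised footprints, reads scaled by the authors to equal numbers of spike-in reads. All 10 markers of pluripotent cells, Pou5f1 and Nanog among them, had at least 100 mean transcriptome reads, with a summed transcriptome level of 40033 and 35716. Of 7 fibroblast markers 5 reached this level, with transcriptome sums of 210293 and 215815, above those of the pluripotent markers. In control footprints the order was the other way. The sums there were 45629 and 42772 for the pluripotent markers and 33481.8 and 31992.5 for the fibroblast markers. The summed transcriptome levels of the primitive endoderm, mesoderm and neural markers lay between 334 and 11343. These markers were measured in untreated cells and their part in the results below was not tested.

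Some of the families carry coding sequences of their own kind. Below, 30 coding bases are printed for members on which results turn, 5' to 3' on the coding strand of GRCm38. In the RS stretches of Srsf2 (exon 2, chr11:116852286-116852315, minus strand) and Srsf6 (exon 6, chr2:162934704-162934733, plus strand) capitals mark serine codons, which alternate with arginine codons.
Srsf2: cgcAGCcgaTCTcgaAGCcggAGTcggTCC
Srsf6: TCAaggTCCcgtTCTagaTCTcgtTCAagg
Among the 11 SR genes the translated coding sequence held a median of 16.0 arginine-serine or serine-arginine pairs per 100 codons, from 4.05 in Srsf9 to 23.5 in Srsf2. The 18 hnRNP genes whose coding sequence had the same length in M21 held a median of 1.03, and the highest value outside the SR genes was 9.96 in Prpf38b. Many hnRNP proteins carry arginine-glycine-glycine repeats instead. In Hnrnpu (exon 11, chr1:178330626-178330655, minus strand) and Hnrnpa0 (exon 1, chr13:58127717-58127746, minus strand) capitals mark these codon triplets.
Hnrnpu: AGAGGTGGTggccatagaggcCGTGGAGGA
Hnrnpa0: CGGGGCGGGCGCGGCGGAggccggggccgc
Such triplets occurred in 11 of the 18 hnRNP genes, with up to 8 in Hnrnpu and Hnrnpr, and in 4 of 11 SR genes. Each of these 4 stretches occurs once in the genome.

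The first 30 coding bases of 6 members show the limit that copies in the genome set. Capitals mark the start codon. Each of the leading 3, of Srsf2 (chr11:116852900-116852929), Hnrnpu (chr1:178337542-178337571) and Snrpd3 (chr10:75519335-75519364), has 1 exact match.
Srsf2: ATGagctacggccgcccgcctcccgatgtg
Hnrnpu: ATGagttcttcgcctgttaatgtcaagaag
Snrpd3: ATGtctattggtgtgccgattaaagtcttg
The other 3 lie in Srsf3 (chr17:29036243-29036272), Hnrnpk (chr13:58400361-58400390) and Snrpg (chr6:86371583-86371612), and their further exact copies lie in annotated processed pseudogenes.
Srsf3: ATGcatcgtgattcctgtcccttggattgt
Hnrnpk: ATGgagaccgaacagccagaagaaaccttc
Snrpg: ATGagcaaagcccaccctcccgagctgaag
Srsf3 has 3 matches, Hnrnpk 2 and Snrpg 2. The authors left out reads with several matches in the genome. Of 64 members whose coding sequence could be taken from M21, 26 had no stretch of 30 bases that occurs again in the genome, and 18 had such stretches at over 50% of their positions. The 18 were Srsf3, Srsf5, Srsf10, Hnrnpa1, Hnrnpa3, Hnrnpc, Hnrnpf, Hnrnph2, Hnrnpk, Snrpa, Snrpc, Snrpd1, Snrpd2, Snrpe, Snrpf, Snrpg, Sf3b4 and U2af1. Their levels rest on what is left of each sequence and are uncertain, so counts are also given without them. Prpf19, U2af2, Hnrnpa2b1 and Hnrnpul1, whose coding sequence could not be taken from M21, were kept in those counts.

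Footprints on the coding sequences of the members made up 2.33% and 2.34% of all coding footprints in the control libraries and 1.32% and 1.22% of the transcriptome reads. The hnRNP genes contributed most, with 1.09% and 1.10% of control footprints, and the U2AF genes least, with 0.0120% and 0.0131%. Hnrnpu (chr1:178324343-178337797), a nuclear matrix protein that binds RNA and chromatin, had the most control footprints of any member, 40521 and 37575 normalised footprints. Prpf8 (chr11:75486816-75509447), the scaffold of the catalytic centre, followed with 29889.7 and 25714. Among the SF3 subunits Sf3b3 (chr8:110810239-110846776) led with 14937 and 13418. In the other families the leading members were Srsf2 (chr11:116849901-116853094), an activator of exon inclusion, with 5820.2 and 6386, the Sm protein gene Snrpd3 (chr10:75517551-75537381) with 4394 and 3571, and U2af2 (chr7:5062143-5079938), which binds the polypyrimidine tract, with 1119 and 1099.6. In each of these 6 genes the libraries of every drug lay below both control libraries. In the tests below, 99.3%, 92.9% and 90.1% of all transcripts were lowered with DMDA-PatA, harringtonine and puromycin. The pattern therefore says little about these genes.

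**Figure D1:**
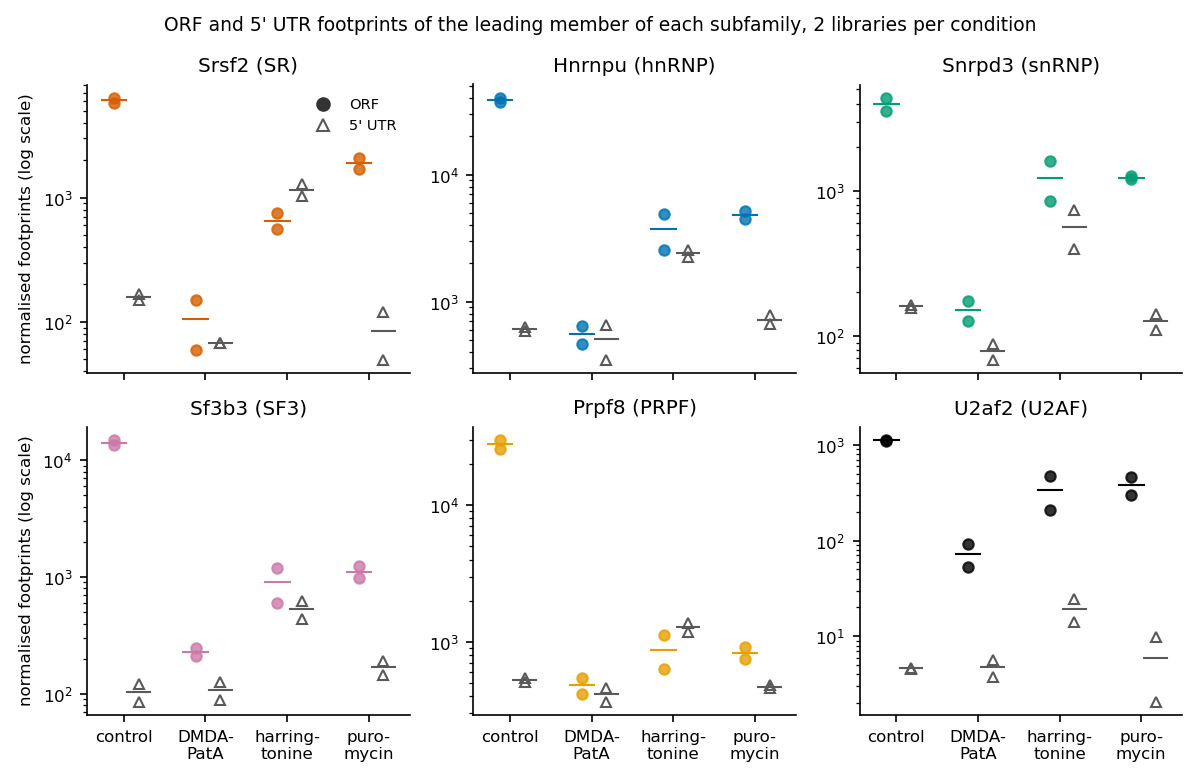
Normalised footprints (log axis) on the ORF (filled dots) and 5' UTR (open triangles) of the member with the most control footprints in each family, in the 2 libraries of each condition, with bars at the mean. ORF dots of all 6 genes are highest in the control and lowest with DMDA-PatA, where those of Hnrnpu fall from 40521 and 37575 to 467 and 645, while the triangles of all 6 genes are highest with harringtonine.

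Translation efficiency (TE) was taken as control footprints on the coding sequence over transcriptome reads there, with both scaled to the same sum over coding sequences. It compares footprint and transcript numbers of untreated cells. Of the 65 members that passed the filter on low counts, 55 had a TE above that of the typical transcript and 5 below it (quasi-likelihood test of edgeR, p-values adjusted by Benjamini-Hochberg over 14017 transcripts), where 34.0% of all tested transcripts were above and 36.4% below. Without the 18 members that are mostly not unique the counts were 42 above and 5 below of 50. Among the 58 members with at least 100 mean control reads the median TE was 2.02, with 1.81 and 2.23 in the replicates, against 1.02 over 8407 coding transcripts. By family the median was 1.71 for SR, 2.41 for hnRNP, 2.71 for snRNP, 1.96 for SF3, 1.49 for PRPF and 3.13 for the 2 U2AF genes. Genes are not replicates, so these family medians are descriptions without a test. The 9 tested SF3 subunits and the 3 U2AF genes all passed with a higher TE, as did 17 of 19 hnRNP, 10 of 11 snRNP, 10 of 13 PRPF and 6 of 10 SR genes.

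Among members with at least 100 mean control and 100 mean transcriptome reads, the highest TE was that of Hnrnpd, an AU-rich element binding protein also known as AUF1. It had 5412 and 5464 control footprints and 1426 and 1062 transcriptome reads as deposited, a TE of 10.8, and its log2 change against the typical transcript, with its standard error (SE), was 3.60 (SE 0.13, adjusted p = 8.20e-11). Snrpd3 followed with a TE of 6.99 (6.98 and 6.97 in the replicates). Hnrnpk, a poly(C) binding protein, had 6.48, from the small unique share of its sequence. The lowest values among the same members were those of Prpf40b, a U1-associated protein, with 0.381, Prpf39, another U1 partner, with 0.452, and Hnrnpul1 with 0.646. Prpf40b carried 169.8 and 154 control footprints beside 1142 and 963 transcriptome reads, and its log2 change was -1.24 (SE 0.13, adjusted p = 1.12e-06). Below that number of reads, Snrpe had a TE of 13.7 from 4 and 9 transcriptome reads and Srsf12 one of 0.257. The other members below the typical transcript were Srsf12, at -1.77 on the log2 scale from 9 and 12 control reads, and the splicing kinase gene Prpf4b at -0.29. Srsf4, Srsf10, Srsf11, Hnrnpf and Snrpn passed in neither direction.

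TE falls with the length of the coding sequence over all coding transcripts, from a median of 2.32 below 300 nt to 0.458 from 4000 nt upwards, and the members followed the same order, from 2.75 (3 members) to 1.11 (Prpf8 alone). Of the 58 members 49 had a TE above the median of coding transcripts in their own length class. These were 16 of 17 hnRNP, 11 of 13 PRPF, 8 of 9 SF3, 7 of 9 snRNP, 6 of 8 SR and 1 of 2 U2AF genes.

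**Figure D2:**
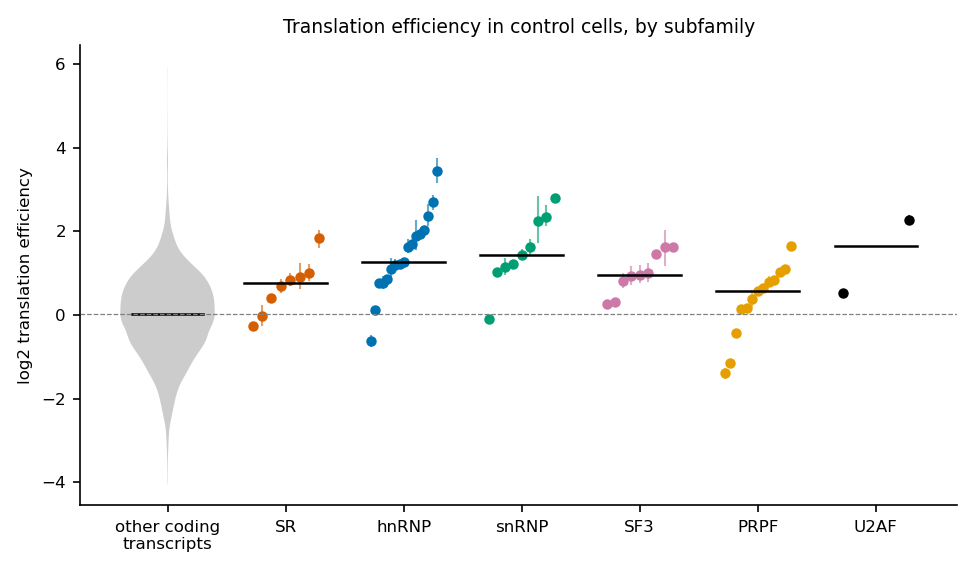
Log2 translation efficiency in untreated cells of the 58 members with at least 100 mean control reads (points, with a line joining the values of the 2 replicates and a bar at the family median), beside the distribution of the other coding transcripts (grey, bar at the median). Every family median lies above the dashed line at 0, and the lowest points are Prpf40b and Prpf39 among the PRPF genes.

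DMDA-PatA lowered the coding footprints of nearly every member. Of the 65 tested, 64 were lowered (edgeR's quasi-likelihood test on the spike-in scale, Benjamini-Hochberg adjustment over 12499 transcripts). Over all transcripts 99.3% were lowered, so the count says little about the members. Without the 18 members mostly not unique, 50 of 50 were lowered. Among the 58 members with at least 100 mean control reads the median fold decrease was 28.5 ± 10.1 (SD of the 2 replicate pairs, which gave 36.6 and 22.4). Over 8460 coding transcripts it was 22.4 (29.3 and 17.8), below the members in both pairs. The SD holds a shift between pairs that both sets share, so it does not measure their difference, which was not tested. The medians were 34.6 for hnRNP, 30.9 for PRPF, 28.9 for SR, 26.4 for snRNP, 20.4 for SF3 and 12.0 for U2AF genes. The replicate pairs gave 18.6 and 8.83 for U2AF against 41.0 and 41.1 for hnRNP genes, whereas those of the SR (37.1 and 24.1), snRNP (34.6 and 21.5), PRPF (37.2 and 20.3) and SF3 genes (28.0 and 19.0) overlapped one another. Of the 58 members 40 fell by more than the median of coding transcripts of their length class, 7 of 8 SR, 8 of 9 snRNP, 12 of 17 hnRNP, 8 of 13 PRPF, 5 of 9 SF3 and 0 of 2 U2AF genes.

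The largest falls by fold were those of Sf3b6 (chr12:4817544-4827659), the SF3B subunit that contacts the branch site adenosine, and Hnrnpab, each 102-fold. Sf3b6 went from 756 and 695 to 6.94 and 7.31 normalised footprints, a log2 change of -6.65 (SE 0.57, adjusted p = 4.33e-29). Hnrnpab went from 17939 and 16403 to 143 and 194, with -6.67 (SE 0.59, adjusted p = 5.29e-28) in the same test. Hnrnph2 fell 95.2-fold, but to 5 and 3 reads. At the other end stood Sf3b4, Hnrnpdl and Snrpf, with falls of 3.96-fold, 6.06-fold and 6.97-fold. Hnrnpdl, a relative of Hnrnpd, kept 108 and 256 of 1132 and 1072 normalised footprints, whereas Hnrnpd kept 54.9 and 77.1 of 5412 and 5464. In both genes the groups did not overlap. Hnrnpu fell from 40521 and 37575 to 467 and 645, and U2af2 from 1119 and 1099.6 to 53.0 and 91.7. The member that did not pass was U2af1, which reads the AG at the intron's end and held only 9 and 37 control reads, with a log2 change of -0.98 (SE 0.51, adjusted p = 0.0567).

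Harringtonine lowered 62 of the 65 tested members, where 92.9% of all transcripts were lowered, and puromycin lowered 58, where 90.1% were lowered. Without the 18 members mostly not unique these counts were 48 and 47 of 50. The median fold decrease with harringtonine was 7.87 (6.61 and 11.0 in the replicate pairs), against 8.70 over coding transcripts, and with puromycin 6.76 (6.79 and 6.41), against 6.30. For harringtonine the pairs of coding transcripts gave 7.29 and 11.3, above the members in both. For puromycin they gave 6.83 and 5.94, above the members in the first pair and below them in the other. These differences were not tested. The 3 drugs share the same control libraries, so their values are given side by side. The SF3 subunits had the highest family median with harringtonine, 12.9, and with puromycin, 9.08. The snRNP genes had 5.93 and 4.06 and the U2AF genes 5.57 and 3.01. Those not lowered by harringtonine were Srsf12, Hnrnpdl and Snrpe, and those not lowered by puromycin were Srsf10, Srsf12, Hnrnpa0, Snrpe, Snrpf, Sf3a2 and Sf3b4.

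The largest falls with both drugs were those of Hnrnpk, which went from 1082 and 920.1 normalised footprints to 10.1 and 3.50 with harringtonine and 6.20 and 7.46 with puromycin, at log2 changes of -7.26 and -7.15 (standard errors 0.60 and 0.62). Only 3 to 10 reads were left in each of these libraries, and 87.2% of the positions of this coding sequence are not unique. Hnrnph2 fell 102-fold with harringtonine and 24.3-fold with puromycin, also to few reads. Sf3b6 fell 45.8-fold with harringtonine, to 14.2 and 17.5, and 9.08-fold with puromycin. Prpf8, with the longest coding sequence of the members at 7005 nt, fell 33.4-fold with puromycin, from 29889.7 and 25714 to 751 and 913. The smallest falls with harringtonine were those of Hnrnpdl (1.67-fold), Snrpf (1.85-fold) and Hnrnpc (1.88-fold). Those with puromycin were Hnrnpa0, which held 1998 and 1593 against 2129 and 2389, Sf3a2 with 536 and 673 against 809 and 786, and Snrpf. For Hnrnpa0 the fall of 1.26-fold did not pass the test (adjusted p = 0.465), nor did the 1.32-fold of Sf3a2 (adjusted p = 0.370).

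Coding length separated the members under these drugs. Over all coding transcripts the median fall with puromycin went from 1.90-fold below 300 nt to 13.3-fold from 4000 nt upwards, and the members went from 1.84-fold to the 33.4-fold of Prpf8. With harringtonine the coding transcripts went from 2.10-fold to 15.4-fold. Across the 58 members Spearman's rho of length and fold decrease was 0.57 for puromycin, 0.32 for harringtonine and -0.05 for DMDA-PatA, against 0.62, 0.52 and 0.24 over 8404 coding transcripts. These describe genes measured in the same libraries and carry no p. The families differ in length, with median coding sequences of 675 nt for the snRNP and 1995 nt for the PRPF genes measured here. Within length classes the members were near the middle, with 29 of 58 above the coding median for harringtonine and 35 of 58 for puromycin. Sf3b6, with 375 nt, fell 45.8-fold with harringtonine where the median of its length class was 3.54-fold, and Sf3b5, with 258 nt, fell 2.00-fold.

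**Figure D3:**
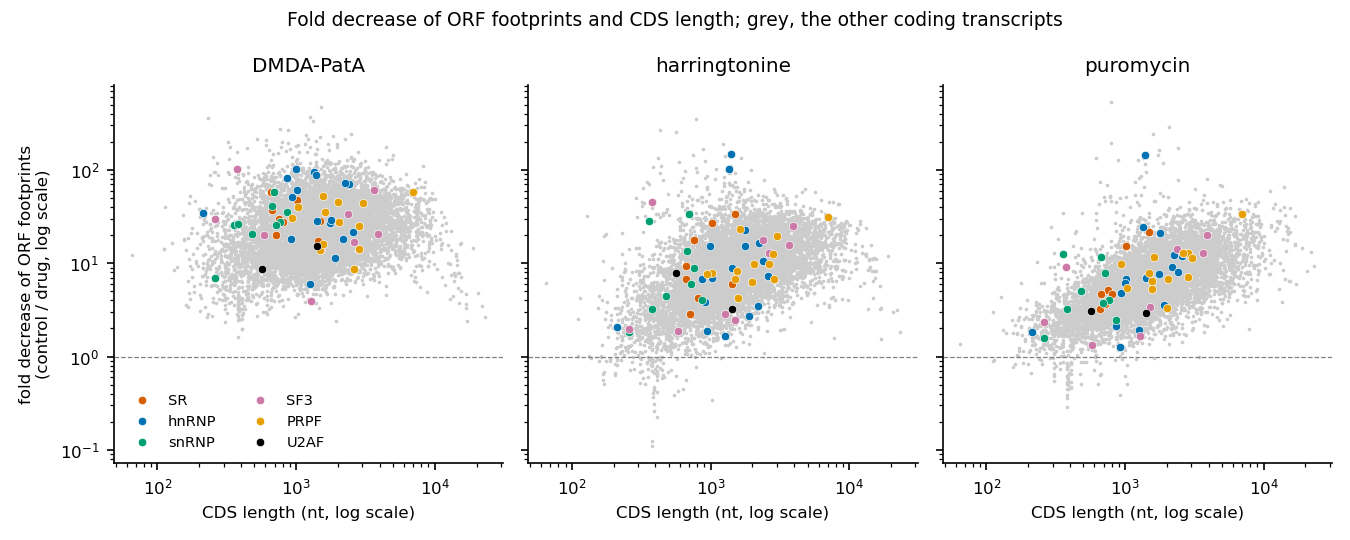
Fold decrease of ORF footprints (control over drug, log axis) against coding length (nt, log axis) for 58 members (coloured by family) and the other coding transcripts (grey), 1 panel per drug. The grey cloud climbs with length for harringtonine and puromycin and little for DMDA-PatA, and Hnrnpk stands at the top of the puromycin panel at 147-fold.

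Shares of all coding footprints, which take out a change common to all transcripts, showed how the members fared against the rest. Members together fell from 2.33% and 2.34% of coding footprints in the control to 1.37% and 1.38% under DMDA-PatA, to 1.70% and 1.67% under harringtonine, and to 1.91% and 1.77% under puromycin. The hnRNP genes went from 1.09% and 1.10% to 0.536% and 0.540% with DMDA-PatA, and the PRPF genes from 0.475% and 0.455% to 0.274% and 0.260%. The U2AF genes went from 0.0120% and 0.0131% up to 0.0184% and 0.0211%. The SR genes went from 0.223% and 0.239% to 0.142% and 0.142%, and the snRNP genes from 0.0940% and 0.0949% to 0.0679% and 0.0679%. The SF3 genes went from 0.434% and 0.435% to 0.334% and 0.349%. In all 6 families the 2 groups of libraries did not overlap, so this does not set any family apart. By gene, 35 of 65 members had a lower and 7 a higher share with DMDA-PatA (edgeR with TMM scaling), where 23.6% of all transcripts were lower and 18.8% higher. Without the 18 members mostly not unique, 29 were lower and 4 higher of 50. The median log2 change of the tested members was -0.59, against -0.12 over all tested transcripts. Lower shares were found for 12 of 19 hnRNP, 8 of 13 PRPF, 6 of 11 snRNP, 5 of 10 SR, 4 of 9 SF3 and 0 of 3 U2AF genes. The 7 higher ones were Hnrnpdl, Hnrnpr, Snrpf, Sf3b4, Prpf40b, U2af1 and U2af1l4, the last a U2af1 paralogue.

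Of the leading members, Hnrnpu, Srsf2, Sf3b3 and Prpf8 changed in share with DMDA-PatA by -1.91, -1.72, -1.69 and -1.61 on the log2 scale, with standard errors of 0.19 to 0.24. Snrpd3 changed by -0.49 (SE 0.19, adjusted p = 0.0390), and U2af2, at 0.26 (adjusted p = 0.362 in edgeR), did not pass. With harringtonine 26 members had a lower and 20 a higher share, where 30.0% and 26.6% of all transcripts did. With puromycin the counts were again 26 and 20, where 24.9% and 24.3% of all transcripts did. Hnrnpk lost share under both drugs, with log2 changes of -4.41 and -4.70. Hnrnpa0 rose with puromycin by 2.11 (SE 0.23, adjusted p = 3.72e-07), and Sf3a2 by 2.05 (SE 0.20, adjusted p = 7.88e-08). Srsf2 lost share with DMDA-PatA but gained 0.75 with puromycin (adjusted p = 0.00724 in edgeR). Hnrnpd did the same, from -2.14 with DMDA-PatA to 1.35 with puromycin. Its coding footprints with puromycin, 2566 and 2499, were still below the control's.

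**Figure D4:**
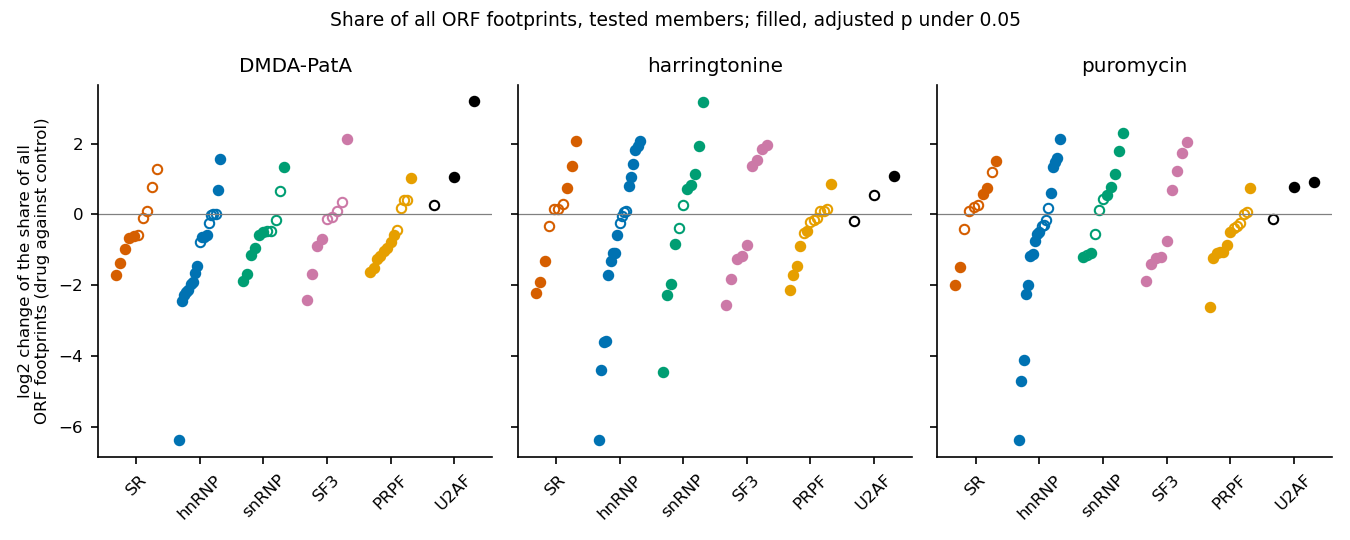
Log2 change of the share of all ORF footprints (drug against control) for the 65 tested members by family, with filled points for an adjusted p under 0.05. Most hnRNP and PRPF points lie below 0 with DMDA-PatA and the U2AF points above it. The lowest hnRNP point in each panel is Hnrnpf, which had no reads with any drug, so its fitted value is no bound.

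Within the SR family the falls ranged widely. Srsf1, the founding SR protein, fell from 4729.7 and 4616 normalised footprints to 124 and 193 under DMDA-PatA, 343 and 189 under harringtonine and 883 and 935 under puromycin. Its fall with harringtonine was 17.6-fold and took its share down by a log2 change of -1.31 (SE 0.18, adjusted p = 2.98e-06). Srsf7, an SR protein with a zinc knuckle, is close to it in coding length (714 against 759 nt) but fell only 2.87-fold, from 3097 and 2331 to 1099 and 790.3, and its share rose by 1.37 (SE 0.19, adjusted p = 4.69e-06). Srsf6 fell 48.2-fold with DMDA-PatA, 26.8-fold with harringtonine and 15.3-fold with puromycin, and its share fell under each drug. In Srsf4, the closest relative of Srsf6 in domain layout, the share fell under each drug as well, from 884 and 910.1 footprints to 41.4 and 41.0 with puromycin. Srsf11, which differs from the other SR proteins in its RNA recognition motif, passed the test of its share under none of the 3 drugs, with log2 changes of 0.10, 0.29 and -0.40.

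Among the hnRNP genes, Hnrnpa2b1, which binds RNA in the nucleus and in transport granules, went from 8613 and 7192 to 124 and 136 with DMDA-PatA, and its share fell by -1.66 (SE 0.23, adjusted p = 9.84e-06). Hnrnpul2, a relative of Hnrnpu, fell 72.1-fold, close to the 70.2-fold of Hnrnpu, while Hnrnpul1 fell 21.7-fold. The pair Hnrnpl and Hnrnpll, which bind CA-rich RNA, fell 27.3-fold and 29.2-fold. Hnrnpm, a GU-rich RNA binding protein, fell 18.2-fold, from 9929.9 and 8276 to 378 and 624, with a share change of 0.02 that did not pass. With harringtonine its share rose by 1.05 (SE 0.19, adjusted p = 7.07e-05), the opposite of Hnrnpl, whose share fell by -1.72 (SE 0.20, adjusted p = 5.28e-07). Hnrnpr was higher in share under all 3 drugs, by 0.70, 1.41 and 0.62, as was Hnrnpdl, by 1.56, 2.08 and 1.49. All 6 changes passed the test. For Hnrnpr 47.8% of the coding positions are not unique.

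Of the snRNP genes, Snrpb, which encodes the Sm proteins B and B', stood out from Snrpd3. It went from 1356 and 1517 footprints to 17.0 and 32.5 under DMDA-PatA, 56.8 and 27.3 under harringtonine and 343 and 424 under puromycin. Its share fell with DMDA-PatA and harringtonine, by -1.68 and -2.29, and rose with puromycin by 0.55 (all adjusted p below the threshold in edgeR). Snrpd3, which sits in the same ring, rose in share with harringtonine and puromycin, by 1.14 and 0.77. The U2 proteins Snrpa1 and Snrpb2, which bind each other, fell 27.7-fold and 40.8-fold with DMDA-PatA and 4.06-fold and 11.8-fold with puromycin. Snrpa of U1 fell 35.1-fold with DMDA-PatA.

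The large SF3B subunits had many footprints and moved unevenly. Sf3b1 went from 11182 and 9196 to 399.6 and 601 with DMDA-PatA, a fall of 20.4-fold with a share change of -0.13 that did not pass, and Sf3b3, of similar coding length, fell 61.5-fold with a share change of -1.69. Sf3b2, which binds upstream of the branch site, fell 17.1-fold. With harringtonine Sf3b1 fell 24.8-fold and Sf3b3 15.8-fold. In the SF3A complex Sf3a1 fell 33.6-fold, 17.9-fold and 14.4-fold with DMDA-PatA, harringtonine and puromycin, Sf3a3 14.2-fold, 2.50-fold and 3.39-fold, and Sf3a2 20.1-fold, 1.89-fold and 1.32-fold. With harringtonine Sf3a1 had 406 and 312 of 6571 and 6269 footprints and Sf3a3 1517 and 887 of 3103 and 2896. The difference between the subunits was not tested.

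Among the PRPF genes the tri-snRNP proteins Prpf3, Prpf4, Prpf6 and Prpf31 fell 27.6-fold, 16.2-fold, 25.0-fold and 14.0-fold with DMDA-PatA. Of these only Prpf3 had a changed share, by -0.59 (SE 0.19, adjusted p = 0.0188). Prpf19, the ubiquitin ligase that gives its complex its name, went from 2845 and 2551 to 37.2 and 64.9, a fall of 52.8-fold with a share change of -1.52 (SE 0.29, adjusted p = 0.000308). With harringtonine its fall was 4.26-fold and it was the PRPF gene whose share rose. Prpf40b fell 8.74-fold with DMDA-PatA and 13.0-fold with puromycin. Prpf39, the U1 partner of low TE, was the PRPF gene whose share rose with puromycin, by 0.74 (SE 0.24, adjusted p = 0.0138). Of the U2AF genes U2af1l4 went from 153 and 129 to 9.47 and 22.7 with DMDA-PatA, a fall of 8.76-fold and a share change of 1.04 (SE 0.31, adjusted p = 0.0108).

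Footprints on 5' UTRs were read in 2 ways. The share of the members' own reads that lay on the 5' UTR was taken over the 5' UTR, coding sequence and 3' UTR together. In the control it was 2.77% and 3.57% (members with at least 100 mean control reads), against 3.68% and 3.94% for coding transcripts. It was 50.4% and 49.7% with DMDA-PatA, against 36.5% and 36.9% for coding transcripts. With harringtonine it was 40.9% and 49.1%, against 27.6% and 31.3%, and with puromycin 22.2% and 18.5%, against 19.1% and 16.6%. The transcriptome had 3.06% and 2.95%, where 3' UTR reads weigh more in the total. All members had 66453 and 160197 such reads there, beside 326 and 444 in the control footprint libraries. The families differed in this share before any drug. It was 11.3% and 11.5% in the control libraries and 20.5% and 17.7% in the transcriptome for the snRNP genes, and 76.9% and 77.1% with DMDA-PatA. For the 2 U2AF genes it was 0.369% and 0.367% in the control, 4.74% and 3.55% in the transcriptome and 5.56% and 4.67% with DMDA-PatA. The U2AF values rest on few 5' UTR reads in the footprint libraries and are uncertain. Of the snRNP genes Snrpa, Snrpc, Snrpd1, Snrpd2, Snrpe, Snrpf and Snrpg have mostly not unique coding sequences. Reads with several matches were left out, and the part of this in the snRNP share was not tested. These shares rise when coding footprints fall, so the 5' UTR footprints were also compared directly on the spike-in scale.

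Harringtonine raised 5' UTR footprints in 39 of 52 tested members and lowered them in 1 (edgeR's quasi-likelihood test), where 35.1% of 6647 coding transcripts were higher and 5.21% lower. Without the members mostly not unique in coding sequence the counts were 33 and 1 of 42. Uniqueness of the 5' UTRs was not scored, so these counts do not check how reads were placed there. The median log2 change was 1.68 in the members and 0.88 over all tested transcripts. Higher values were found in 12 of 16 hnRNP, 9 of 13 PRPF, 6 of 7 SF3, 6 of 8 snRNP and 5 of 7 SR genes and in U2af2. The largest rise was that of Sf3b1, the SF3B subunit that clamps the branch site helix. It had 3 and 7 reads in the control libraries, 3.54 and 6.35 normalised footprints, and 233 and 242 with harringtonine, a log2 change of 5.52 (SE 0.62, adjusted p = 7.22e-16). Hnrnpm rose from 1.18 and 0, which is 1 read and 0 reads, to 19.3 and 10.5, and Hnrnpul1 from 1.18 and 1.81 to 14.2 and 16.1. With so few control reads the size of these rises is uncertain. Sf3b1, Hnrnpm and Hnrnpul1 had under 10 reads in both control libraries. They passed the low-count filter only through drug libraries, so the count of higher members includes genes tested because of their drug reads. All coding transcripts were put through the same filter. Rises from higher control levels were those of Srsf2, from 149 and 169 to 1289 and 1030.3, with a log2 change of 2.87 and an SE of 0.47, and Hnrnpu, from 585 and 630.0 to 2554 and 2234. Srsf5, with 191 and 117 against 151 and 144, did not pass. The count depended on single libraries. It was 19 higher and 0 lower without control replicate 2, 25 and 1 without control replicate 1, and 23 and 1 without harringtonine replicate 1.

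With DMDA-PatA the 5' UTR footprints of members went both ways. Of the 52 tested 8 were higher and 6 lower, where 14.7% and 29.0% of all coding transcripts were. Leaving out the members mostly not unique in coding sequence gave 6 and 6 of 42, again with no score for the 5' UTRs. The median log2 change was 0.31 in the members and -0.48 over all tested transcripts. The counts were 4 higher and 2 lower without control replicate 2, 12 and 2 without DMDA-PatA replicate 1, and 5 and 9 without DMDA-PatA replicate 2. The median of the members was 0.50 and -0.18 in the latter pair of fits, so its direction rests on which DMDA-PatA library is kept, while that of all tested transcripts was -0.24 and -0.93. The counts were 15 and 7 when the size factors of the DMDA-PatA and harringtonine libraries were exchanged, since tables of the study order them differently. The higher ones were Srsf5, Srsf7, Srsf10, Hnrnpm, Sf3a3, Sf3b1, Prpf6 and Prpf31. Sf3a3, a subunit of the U2-bound SF3A complex, rose from 11.8 and 4.53 to 59.3 and 95.0, a log2 change of 3.27 (SE 0.59, adjusted p = 7.34e-07). Hnrnpm rose to 18.3 and 31.7 and Sf3b1 to 51.8 and 71.4. Both of these, and Srsf10 with 4 and 3 control reads, passed the low-count filter only through drug libraries. Sf3a3 also needed a drug library to pass it. The lower ones were Srsf2, Hnrnpd, Snrpn, Sf3b6, Prpf19 and Prpf39. Sf3b6 fell from 684 and 755 to 89.0 and 131, a log2 change of -2.71 (SE 0.46, adjusted p = 1.42e-07), and was also the member lowered by harringtonine, to 272 and 227, with a log2 change of -1.53 (SE 0.44, adjusted p = 0.00287). Its puromycin libraries, 664 and 598, did not pass. The 5' UTR listed for Sf3b6 has another length in M21 and was not searched for overlapping coding sequence. Srsf2 fell on its 5' UTR from 149 and 169 to 67.5 and 68.2, with a log2 change of -1.22 (SE 0.46, adjusted p = 0.0198). In untreated cells 47.5% and 51.9% of the footprints of Sf3b6 lay on the 5' UTR. Snrpb2, at 1.26 and 2.44 against 9.43 and 1.81, had a log2 change of -1.51 that did not pass.

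Snrpn, which encodes the Sm protein of neurons and other tissues, is made from a transcript that also encodes Snurf, and 213 of the 464 nt of its 5' UTR lie in the annotated Snurf coding sequence. The footprints on the whole 5' UTR, 334 and 300.05 in the control, outnumbered those on the Snrpn coding sequence, 262 and 208. They were counted over all 464 nt, so the part that lies in Snurf is not known. With DMDA-PatA they fell to 79.5 and 106, a log2 change of -1.77 (SE 0.46, adjusted p = 0.000629), and with harringtonine, at 221 and 240.1, they did not pass (adjusted p = 0.415 in edgeR).

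Puromycin left 0 of 52 members called on the 5' UTR in edgeR, and 0 in DESeq2, where 0.557% of coding transcripts were higher and 0.406% lower. At an unadjusted p under 0.05, 4 members were higher and 2 lower. The largest log2 changes were 1.37 in Hnrnpm, 1.18 in Prpf4b and 1.07 in Hnrnpab, and the lowest were -4.52 in Prpf4, which went from 3 and 2 reads to 0 in both libraries, -1.33 in Srsf5 and -1.30 in Prpf31. Hnrnpab had 1 control library far below the other on its 5' UTR, 204 and 1203, and 2246 and 715 with puromycin, so the groups overlapped. The log2 change of Hnrnpab was 2.86 and passed without control replicate 2 (adjusted p = 0.0376 in edgeR).

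**Figure D5:**
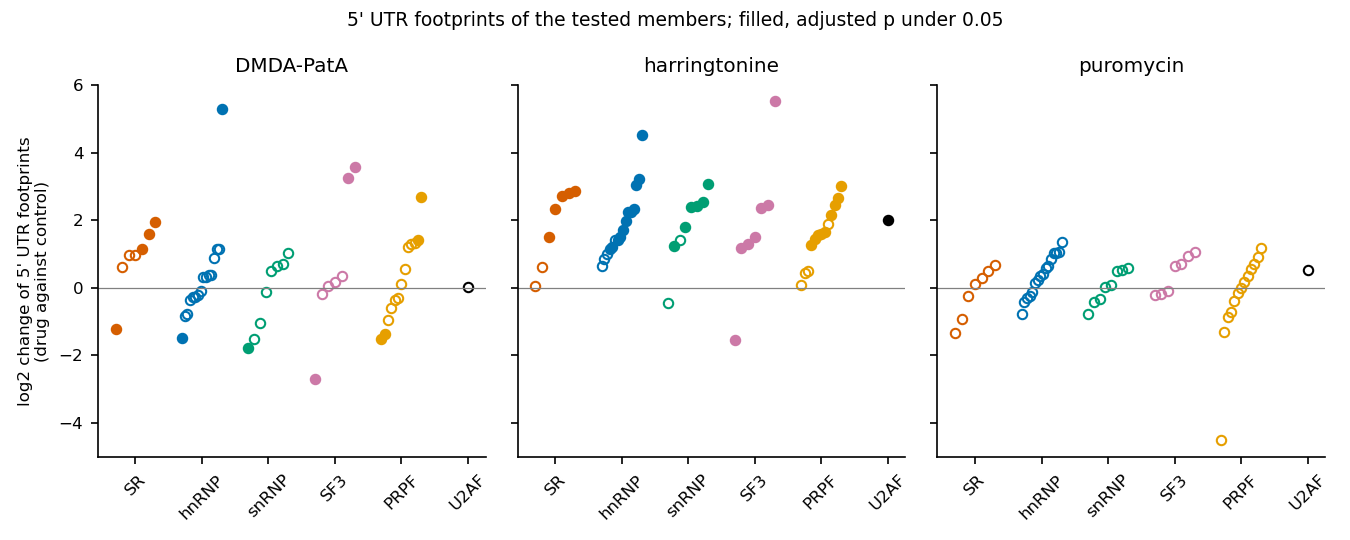
Log2 change of 5' UTR footprints (drug against control) for the 52 tested members by family, with filled points for an adjusted p under 0.05. Nearly all points lie above 0 with harringtonine, Sf3b6 being the filled point below it, while they lie on both sides of 0 with DMDA-PatA and with puromycin, where none is filled.

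An ATG upstream of the start codon, searched as these 3 letters in the sense strand of the 5' UTR in any frame, occurred in 17 of 50 members (34.0%) and in 51.8% of 10913 coding transcripts, with median 5' UTR lengths of 165 and 174 nt. Only transcripts whose coding sequence and 5' UTR had the same length in M21 were searched. Over those of them that were tested, the median log2 change of 5' UTR footprints with DMDA-PatA was -1.03 with such an ATG (3112 transcripts). It was 0.51 without one (1966 transcripts). In the members searched and tested the median was 0.47 with (14 members) and 0.25 without (24 members). With harringtonine it was 0.47 and 1.52 over the same coding transcripts and 1.61 and 1.80 in the same members. A match describes the sequence and does not show that an upstream frame is read.

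For 3 members the low-count filter left no test on the coding sequence, and other members could be read only in part. Srsf3, one of the smallest SR proteins, was listed at 0 on its coding sequence in all 10 libraries, transcriptome included, while its 5' UTR carried 303 and 307 normalised footprints in the control, 414 and 791 under DMDA-PatA, 552 and 381 under harringtonine and 370.2 and 297 under puromycin. 94.2% of its coding positions are not unique, as the pseudogene copies of its start above show. Snrpg, not unique at any coding position, had 0 footprints in all 8 footprint libraries, and Hnrnpa3 had 8 and 4 control reads. Hnrnpf had 37 and 23 control reads and 0 in all 6 drug libraries. Set against 3 counts over the group, its footprints were at least 30.3-fold lower with DMDA-PatA, 25.9-fold with harringtonine and 13.8-fold with puromycin, with counting error only. With Hnrnpf at its bound the hnRNP median of log2 changes with DMDA-PatA was -4.92 in place of -5.07, and that of shares -0.71 in place of -0.79. Snrpe and Hnrnph3 are listed by short isoforms of 156 and 213 coding nt. Snrpe had 29.5 and 37.2 in the control and 43.6 and 38.5 with harringtonine, and did not pass the test. The listed transcript of Srsf4 is annotated as a retained intron form.

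Other genes of the splicing machinery were read from 7 lists, of which 98 of 100 genes were in the files. DMDA-PatA lowered 96 of 96 tested, harringtonine 89 and puromycin 92, near the shares of 99.3%, 92.9% and 90.1% over all transcripts. Puromycin raised Srpk1, an SR protein kinase named here after its value was seen (log2 change 1.06, adjusted p = 0.0418 in edgeR). In the share of coding footprints with DMDA-PatA 41 of 96 were lower and 19 higher, where 23.6% and 18.8% of all transcripts were. The regulators of splice sites, such as Ptbp1, Pcbp1 and Sf1, had 19 of 29 lower and 1 higher, and a median fall of 37.5-fold. The Sm-like Lsm proteins, which bind U6 and decaying mRNA, had 0 of 6 lower and 2 higher, and median falls of 12.2-fold with DMDA-PatA, 1.61-fold with harringtonine and 2.57-fold with puromycin. Snrnp70, the U1 protein, fell 59.5-fold with DMDA-PatA, and Magoh, of the exon junction complex, 12.1-fold. TE was above the typical transcript in 72 of 97 and below it in 8, where 34.0% and 36.4% of all transcripts were. It was above in 8 of 8 genes of the exon junction complex and in 15 of 16 of the Prpf19 complex and catalytic step. The SR-related proteins and kinases had 3 above and 4 below of 12, among the latter Srrm2 at -0.43 and Son at -1.02 on the log2 scale, both long RS-rich proteins. On 5' UTRs harringtonine raised 42 and lowered 2 of 76, where 35.1% and 5.21% of all coding transcripts were raised and lowered. DMDA-PatA raised 23 and lowered 16, where 14.7% and 29.0% were. Puromycin raised 1, Plrg1, where 0.557% were raised.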

How the data were processed

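Footprint and transcriptome libraries of untreated cells and footprint libraries of 3 drug treatments, 2 per group, were analysed. Per the study's methods, the authors aligned SOLiD color-space reads to the mouse genome with LifeScope, left out reads with several matches, kept 1 transcript per gene and assigned offset-shifted read positions to the 5' UTR, ORF and 3' UTR. The submitters' processing notes name mm10 and Picard 1.38. Reads from paralogues and processed pseudogenes are therefore missing where sequences are identical. The values the authors deposited are a signal, reads multiplied by 1 library-specific size factor, which for ribosome profiling came from spike-in reads. Each value divided by what 1 read is worth came out whole within 0.01 read, so read counts were recovered from the deposited signal and tested.

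Counts were tested with edgeR 4.0.16 (glmQLFit and glmQLFTest, limma 3.58.1, R 4.3.3), two-sided, after a filter of at least 10 reads in at least 2 libraries, with Benjamini-Hochberg adjustment over all features tested and a threshold of 0.05. Library sizes followed the spike-in for ORF and 5' UTR footprints and TMM for shares and translation efficiency (TE). The 8 footprint libraries were fitted together, and all drugs share the control libraries. For the TE values transcriptome reads were multiplied by 0.404, which equalises both sums over coding ORFs. Fold decreases are ratios of means of 2 libraries, for members with at least 100 mean control reads. Symbols, coordinates and sequences came from GENCODE M21 and GRCm38, with Python 3.11.15, numpy 2.4.6, pandas 2.3.3 and matplotlib 3.10.9. The edgeR steps were tested on simulated data.

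Members and lists were chosen with earlier results of these data known. Named were the member with the most control footprints in each family, the 3 members at each end of fold decrease, TE and 5' UTR change, members under the filter, members with over 50% of their 30-base coding stretches found more than once, and up to 4 genes of each other list, those with the most control footprints, and others are named as examples chosen after their values were seen. Bounds rest on 3 counts and cover counting error only. Alternatives were a replicate block, DESeq2 1.42.0, RLE size factors, no filter, exchanged size factors, each library left out, and, added after the values were seen, members mostly not unique left out.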

Additional observations from a re-analysis of the deposited data

Results flagged for a closer look

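A noncoding transcript of Hnrnpu was listed apart from the coding one, and it carried footprints that did not fall with the drugs. The ORF on it with the most reads over the 8 footprint libraries has 24 nt (GRCm38 chr1:178323954-178323977, minus strand) and shares 0 nt with the Hnrnpu coding sequence. It had 43.6 and 30.8 normalised footprints in the control, 53.0 and 89.3 under DMDA-PatA, 60.9 and 48.3 under harringtonine and 95.1 and 95.7 under puromycin, beside transcriptome levels of 61.6 and 63.6. The means of the drug libraries were 1.91, 1.47 and 2.56 times that of the control. Each drug library lay above both control libraries. This was the rule by which the transcript was flagged, so it adds nothing to the values. How many other noncoding transcripts meet the rule was not counted, and no test of the difference was run. The listed noncoding transcript of Hnrnpr had at most 1 read in each footprint library.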

How the results depend on the processing

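The calls on coding footprints, shares and TE kept within 1.5 times of the values above under DESeq2, without a filter on low counts and with other size factors. DESeq2 gave 63, 60 and 57 lower coding sequences with DMDA-PatA, harringtonine and puromycin. With the size factors of the DMDA-PatA and harringtonine libraries exchanged, the members with changed 5' UTR footprints were 22 (7 lower, 15 higher) with DMDA-PatA and 1 with puromycin, Srsf5 at -1.33, and Srsf5 turned to -0.22 with harringtonine. Leaving out 1 library at a time gave 58 to 65, 52 to 63 and 49 to 60 lowered coding sequences with DMDA-PatA, harringtonine and puromycin, 26 to 43, 38 to 46 and 31 to 46 changed shares, 56 to 60 TE calls, and 6 to 17, 19 to 42 and 0 to 1 changed 5' UTRs. It left 1 sample in a group, which was assumed to vary like the others. Single replicate pairs gave median falls of 22.4 to 36.6, 6.61 to 11.0 and 6.41 to 6.79. With DMDA-PatA the members changed on the 5' UTR were 2 lower and 12 higher without DMDA-PatA replicate 1, and 9 lower and 5 higher without replicate 2. The share count with DMDA-PatA was lowest without DMDA-PatA replicate 2, at 26 (22 lower, 4 higher). Hnrnpm on the 5' UTR with puromycin ran from -2.47 without puromycin replicate 2 (adjusted p = 0.946 in edgeR) to 3.83 without control replicate 1, and Srsf5 with harringtonine from -0.34 without harringtonine replicate 1 to 0.37 without harringtonine replicate 2. The cause was not tested. Deviations of same-numbered libraries correlated by -0.02 to 0.16, and the main fits did not pair libraries by replicate number. The limit set for pairing, a correlation of 0.1, was passed by control with DMDA-PatA (0.13) and by DMDA-PatA with harringtonine (0.16). With the replicate number as a block, 64, 58 and 56 coding sequences were lowered, 42, 46 and 46 shares and 60 TE values were called, and 12, 38 and 0 5' UTRs changed. Of 672 alternative values of named members 647 kept direction and side of the threshold, 15 lost and 7 gained the call, and 3 reversed. On the 5' UTR 16 members fell under the filter. Among them were Srsf1, with a listed 5' UTR of 36 nt, and Snrpg, with one of 0 nt. The parts of depth and of 5' UTR length in this were not tested.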
